A study of Homo sapiens with 38 samples.

Results

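Messenger RNA was measured for 10 genes of extracellular and cell-surface proteolysis in RKO, an established human line of colorectal cancer cells: the matrix metalloproteinases MMP1, MMP3, MMP14 and MMP15, the membrane-bound ADAM proteases ADAM9, ADAM10 and ADAM17, and the tissue inhibitors TIMP1, TIMP2 and TIMP3. The 10 genes are among 25504 genes of the expression table and were taken from it by symbol. They were chosen with results of these data known: MMP14 because the study examined it, MMP3 because its level was at least 2-fold higher with one inhibitor on day 30, and ADAM9 because its level was at least 2-fold higher with another. The values of these 3 genes are therefore given as a description, with no test. RKO cells received NCD38, an inhibitor of the histone demethylase LSD1 (gene KDM1A), or 1 of 2 conjugates of NCD38 with a DNA-binding pyrrole-imidazole polyamide, each labelled as 2 µM in 0.1% DMSO, or DMSO alone. The methods text writes the unit for the day 4 collection as millimolar, so the day 4 dose is given here as labelled. The conjugate NCD38-β2P4 (labelled P4_NCD38) carries a polyamide of pyrroles that recognises runs of A and T, and NCD38-β2PIPP (labelled PIPP_NCD38) carries one in which an imidazole replaces a pyrrole and which recognises CG flanked by A or T. RNA was collected on day 4 and day 30, the medium having been refreshed every 5 days, and each of the 8 conditions is 1 library, so an inhibitor and DMSO of the same day are compared as 2 single libraries. The 30 ChIP samples of the series were not analysed here.

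Matrix metalloproteinases cut proteins of the extracellular matrix. MMP1 is an interstitial collagenase, MMP3 (stromelysin-1) degrades several matrix proteins and can activate other proenzymes, and MMP14 and MMP15 are anchored in the plasma membrane. ADAM9, ADAM10 and ADAM17 are transmembrane proteases, and ADAM10 and ADAM17 are the main sheddases that release the outer parts of membrane proteins such as Notch receptors and ligands of the EGF receptor. TIMP proteins bind the active site of metalloproteinases and block them. Genes for secreted MMPs lie side by side on the long arm of chromosome 11 and many of them respond to AP-1, the FOS and JUN transcription factors.

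The values are FPKM, fragments scaled to transcript length and to library size, so that levels of different genes can be compared. The table holds no fragment counts, and the pile-up of single fragments in low values put the depth of the libraries at approximately 12500000 to 22900000 fragments. Markers of colonic epithelium were only partly present, and not all of the 7 listed are given here. EPCAM lay between 0.0923 and 6.54 FPKM, KRT18 lay between 76.2 and 121 FPKM and CDX2 between 7.48 and 11.6, whereas KRT20 and VIL1 were listed at 0 in every library and CDH1 reached at most 0.0642. Of the 7 fibroblast markers 4, and of the 3 endothelial markers 2, were listed at 0 in every library, and the others reached at most 0.0152 FPKM. Of the 5 leukocyte markers, CD68 was the only one above 1 FPKM, at 200.8 to 763, and PTPRC was listed at 0 throughout. KDM1A was present in all libraries, at 39.4 to 72.1 FPKM.

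The levels of the members ranged from 0 to 3141 FPKM. TIMP1 was the highest in every library, between 1888 and 3141 FPKM, which placed it at percentile 99.7 or 99.8 of all genes. TIMP2 lay between 0.127 and 0.263 FPKM in the 8 libraries, equal to approximately 7.89 to 16.5 fragments. TIMP3 was listed at 0 in 7 libraries and at 0.0104 in the eighth, day 30 with NCD38, which corresponds to approximately 0.811 fragment. A mean of at least 1 FPKM over the libraries was required for every comparison over all genes, and 8 members passed it, as did 10865 genes in all. MMP3 passed only through its day 30 libraries. The other members of the families were mostly silent: of 19 other MMP genes 9 were listed at 0 in every library and 3 had a mean of at least 1 FPKM, namely MMP10, MMP11 and MMP24, and of 17 other ADAM genes 8 were at 0 throughout and ADAM15 was the only one that passed. None of 19 ADAMTS genes reached a mean of 1 FPKM, and the inhibitors TIMP4 and RECK were at 0 in every library. TIMP1 was thus the only one of these inhibitors at a substantial level, and the summed FPKM of the 3 TIMP members was 50.1 to 148 times that of the 4 MMP members.

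**Figure D1:**
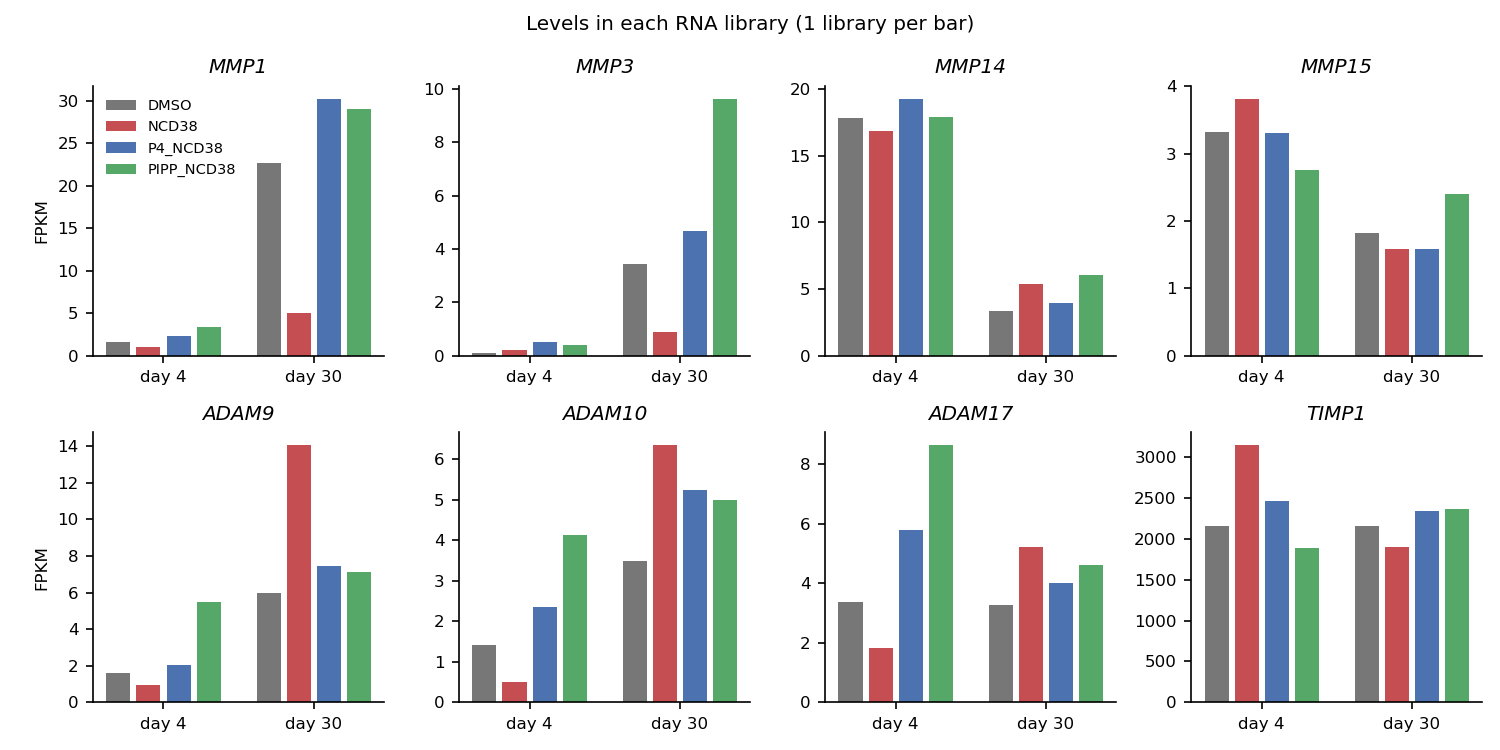
FPKM of the 8 members with a mean of at least 1 FPKM in each RNA library, grouped by day and coloured by treatment, with 1 library per bar and a separate linear axis for each gene. MMP1 and MMP3 are high on day 30 except with NCD38, MMP14 is high on day 4 in all 4 treatments, and ADAM9 stands out with NCD38 on day 30 at 14.1 FPKM.

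Genes and promoters were located on GRCh37. MMP10 (bases 102641233 to 102651359), MMP1 (102660132 to 102668891) and MMP3 (102706532 to 102714340) follow each other on the minus strand of chromosome 11, with gaps of 8773 and 37641 bases. MMP14 is on the plus strand of chromosome 14 (23305769 to 23318250) and MMP15 on the plus strand of chromosome 16 (58059658 to 58080805), and neither overlaps an annotated protein-coding or long noncoding gene. ADAM10 is on chromosome 15 (58881008 to 59041990), overlapped in part by a long noncoding gene on the opposite strand. ADAM17 is on chromosome 2 (9628615 to 9696861), overlapped in part by the protein-coding IAH1 and long noncoding genes on the opposite strand. TIMP1 is on the X chromosome (47441807 to 47446188) and TIMP3 on chromosome 22 (33197691 to 33259028), where SYN1 and SYN3 run on the other strand. TIMP2 is on the minus strand of chromosome 17 (76849059 to 76921469). It is overlapped by the protein-coding CEP295NL on the same strand and by long noncoding genes on the other. The library kit keeps the strand, while whether the fragment assignment used it is not given in the sources used here.

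RefSeq promoter sequences, read over the 250 bases before the RefSeq start and placed on GRCh37 by exact match, were at hand for 6 of the 10 members and for MMP10. Those of MMP1, MMP3, ADAM9 and TIMP2 were not used here. RefSeq and GENCODE place some starts differently: the window of ADAM17 lies wholly inside its GENCODE gene, and 84 bases of that of ADAM10, 28 of TIMP1 and 25 of MMP14 do. The sequences were searched on both strands for the AP-1 element TGANTCA, for runs of 6 or more A or T as read by NCD38-β2P4, and for CG with 2 A or T on each side as read by NCD38-β2PIPP. The promoter of MMP10, the neighbour of MMP1, held 1 AP-1 element 67 bases before the start and no flanked CG. It held 7 runs of A or T, of which the longest had 8 bases. The MMP14 promoter held no AP-1 element and no flanked CG, and 1 run of 14 T. The ADAM10 promoter held no run of A or T and the flanked CG at 2 places, of which the one before the GENCODE start is shown. These stretches are shown 5′ to 3′ on the strand of the gene with every match in capitals; MMP14 is shown up to its GENCODE start.
MMP10, chr11:102651360-102651609, minus strand: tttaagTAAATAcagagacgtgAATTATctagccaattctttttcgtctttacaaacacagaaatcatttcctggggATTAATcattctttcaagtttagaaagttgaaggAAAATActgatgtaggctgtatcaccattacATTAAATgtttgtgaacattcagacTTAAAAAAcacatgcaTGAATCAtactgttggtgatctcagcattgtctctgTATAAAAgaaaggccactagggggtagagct
MMP14, chr14:23305544-23305768, plus strand: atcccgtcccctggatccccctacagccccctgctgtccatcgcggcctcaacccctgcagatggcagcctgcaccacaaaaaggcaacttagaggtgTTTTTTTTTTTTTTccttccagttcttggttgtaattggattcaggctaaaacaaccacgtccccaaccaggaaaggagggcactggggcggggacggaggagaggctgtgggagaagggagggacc
ADAM10, chr15:59042002-59042027, minus strand: aggtctgagtTTCGAAggaggggggg
Of 35116 promoter windows of this length in the table, 6.57% held the AP-1 element, 58.7% a run of 6 A or T and 13.9% the flanked CG. Among the other members, the windows of TIMP1 and TIMP3 each held 1 run of A or T, that of TIMP3 also held 1 flanked CG, and those of MMP15 and ADAM17 held none of the 3 patterns. A match describes the letters of the sequence and was not tested as a binding site.

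MMP1, the collagenase, was 4.50-fold lower with NCD38 than with DMSO on day 30. Its FPKM on day 30 was 22.7 with DMSO, 5.04 under NCD38, 30.2 under NCD38-β2P4 and 29.0 under NCD38-β2PIPP. On day 4 it was 1.63, 1.02, 2.32 and 3.37 in the same order. NCD38 gave the lowest level on both days as deposited, and both conjugates lay above DMSO. The log2 ratio of FPKM + 1 to DMSO was -1.97 on day 30 and -0.38 on day 4 with NCD38, 0.40 and 0.33 with NCD38-β2P4, and 0.34 and 0.73 with NCD38-β2PIPP. The day 4 values did not hold when the trend of each ratio with transcript GC content, described below, was subtracted: they were then 0.22 under NCD38, 0.01 under NCD38-β2P4 and 0.08 under NCD38-β2PIPP, so NCD38 was no longer the lowest. On day 30, 0.653% of all tested genes were at least 2-fold lower with NCD38. With both days in a limma fit that takes day as a block, the NCD38 - DMSO difference of MMP1 was -1.18 ± 0.44 on the log2 scale (SE, 2 libraries each, 95% interval -2.28 to -0.07) and did not pass the threshold of 0.05 after Benjamini-Hochberg adjustment over all genes (limma adjusted p = 1.0). With the GC trend subtracted the difference was -0.92, with a 95% interval of -2.24 to 0.40.

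MMP3, stromelysin-1, had the same low point. On day 30 its FPKM was 3.46 with DMSO, 0.879 under NCD38, 4.67 under NCD38-β2P4 and 9.62 under NCD38-β2PIPP. It was 3.93-fold lower with NCD38 and 2.78-fold higher with NCD38-β2PIPP than with DMSO, and the second ratio is the one that selected the gene. At least 2-fold higher levels with NCD38-β2PIPP on day 30 were found for 0.81% of all genes. On day 4 MMP3 was at 0.0979, 0.236, 0.514 and 0.404 FPKM, equal to approximately 3.15, 5.74, 12.0 and 10.4 fragments, so these levels rest on few fragments. Just inside the 2-fold limit that chose MMP3 and ADAM9 lay ADAM9 with NCD38 on day 30 (log2 ratio 1.10), and the nearest member outside it on that day was ADAM10 with NCD38 (0.71).

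MMP10, a second stromelysin that was not chosen as a member, lies next to MMP1 and was also lowest with NCD38 on day 30. Its FPKM on day 30 was 2.96 with DMSO, 0.247 under NCD38, 3.07 under NCD38-β2P4 and 2.55 under NCD38-β2PIPP, and the 0.247 with NCD38 stands for approximately 7.37 fragments. On day 4 it was 0.204, 0.247, 0.257 and 0.506. With NCD38 on day 30 the log2 ratios to DMSO of the neighbours MMP10, MMP1 and MMP3 were -1.67, -1.97 and -1.25. Of all genes, 0.653% were at least 2-fold lower in this comparison. How many of all genes were lowest with NCD38 on day 30 was not counted. MMP3 was chosen by a day 30 level. MMP10, like MMP3, passed the filter of mean FPKM only through its day 30 libraries. The 6 other MMP genes at this locus, MMP7, MMP20, MMP27, MMP8, MMP12 and MMP13, were listed at 0 in every library. On day 4 the levels of MMP10 and MMP3 with NCD38 were not below those with DMSO.

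**Figure D2:**
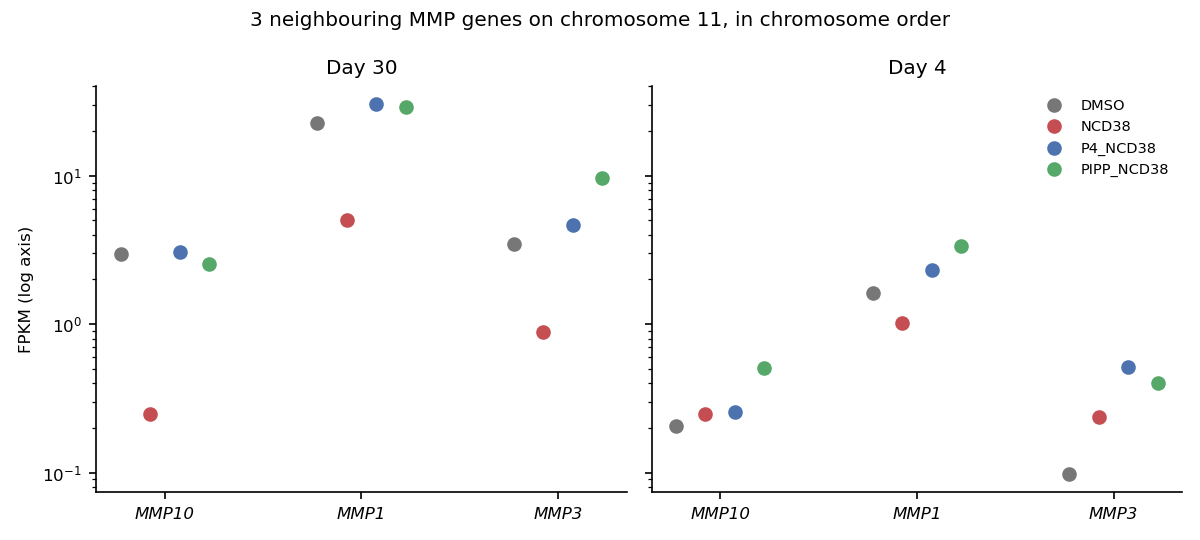
FPKM on a log axis of MMP10, MMP1 and MMP3, neighbours on chromosome 11, on day 30 and day 4, with 1 point per library coloured by treatment. On day 30 the NCD38 library is the lowest point for each gene, and the other 3 libraries lie between 2.55 and 3.07 for MMP10 and between 22.7 and 30.2 for MMP1.

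MMP14, the membrane-type metalloproteinase that the study examined, differed more between the days than between the treatments. Its FPKM on day 30 was 3.39 with DMSO, 5.36 under NCD38, 3.93 under NCD38-β2P4 and 6.06 under NCD38-β2PIPP. On day 4 it was 17.8, 16.8, 19.2 and 17.9. The mean level was 3.83-fold higher on day 4. By the test given below, 31.7% of all genes were called lower on day 30. Against DMSO of the same day, the ratio on day 30 was 1.58 under NCD38, 1.16 under NCD38-β2P4 and 1.79 under NCD38-β2PIPP, and on day 4 it was 0.944, 1.08 and 1.01, so no ratio reached 2-fold. MMP15, the related membrane-type enzyme, was at 1.83, 1.58, 1.59 and 2.41 FPKM on day 30 and at 3.32, 3.81, 3.31 and 2.76 on day 4. Its mean level was also higher on day 4, by 1.78-fold. All its log2 ratios to DMSO of the same day lay between -0.20 and 0.27. MMP14 made up 73.3% to 77.9% of the summed FPKM of the 4 MMP members on day 4, whereas on day 30 MMP1 made up 61.6% to 74.8% of it except with NCD38, where its share was 39.2%. These are deposited values, and the days also differed with transcript GC content, as described below. With that trend subtracted, the log2 difference of day 30 minus day 4 went from -1.76 to -1.05 for MMP14. It went from 2.69 to 2.02 for MMP1 and from -0.60 to 0.077 for MMP15.

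ADAM9, on the plus strand of chromosome 8 of GRCh37 (38854273 to 38962964) and overlapped there by TM2D2 on the other strand, was highest with NCD38 on day 30, the value that selected it. On day 30 its FPKM was 6.005 with DMSO, 14.1 under NCD38, 7.45 under NCD38-β2P4 and 7.11 under NCD38-β2PIPP, and on day 4 it was 1.61, 0.950, 2.05 and 5.49. The ratio of NCD38 to DMSO was 2.34 on day 30, where 1.0% of all genes were at least 2-fold higher, and 0.592 on day 4. The 4 libraries of each day stood in the same order for ADAM10, whose FPKM was 3.49, 6.35, 5.25 and 4.99 on day 30 and 1.42, 0.506, 2.36 and 4.14 on day 4. ADAM17 was at 3.28, 5.21, 4.02 and 4.62 FPKM on day 30 and at 3.39, 1.83, 5.80 and 8.64 on day 4. Its order differed from theirs only in the place of the conjugates on day 30. All 3 ADAM members were therefore above DMSO with NCD38 on day 30, below it with NCD38 on day 4, and highest on day 4 with NCD38-β2PIPP.

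With NCD38-β2PIPP on day 4, ADAM9 was 3.42-fold, ADAM10 2.91-fold and ADAM17 2.55-fold higher than with DMSO. In this comparison 10.3% of all genes were at least 2-fold higher. The 3 ADAM members have transcripts low in G and C, at 38.7%, 37.5% and 42.1%, and in these libraries the ratio to DMSO ran with the GC content of the transcript: over the genes with a matched transcript the Spearman correlation was -0.71 with NCD38-β2PIPP on day 4, and the median log2 ratio was 0.78 in the 20% of genes lowest in GC and -0.12 in the 20% highest. After the median of genes of similar GC content was subtracted, the log2 ratios of ADAM9, ADAM10 and ADAM17 with NCD38-β2PIPP on day 4 went from 1.32, 1.08 and 1.14 to 0.49, 0.26 and 0.36, and none remained at 2-fold. The correlation had the opposite sign with NCD38 on day 4, at 0.61, where the median log2 ratio of all genes was also shifted to -0.21. Relative to genes of similar GC content, ADAM9, ADAM10 and ADAM17 with NCD38 on day 4 were at -0.09, -0.35 and -0.10 instead of -0.42, -0.69 and -0.63. What part GC content had in these ratios was not tested otherwise.

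On day 30 the correlation with GC content was weaker with NCD38 (-0.18) and NCD38-β2PIPP (-0.03), and stronger with NCD38-β2P4 (-0.53). With the same subtraction, MMP1 with NCD38 was at -2.06, MMP3 with NCD38 at -1.31 and MMP10 with NCD38 at -1.74. MMP3 with NCD38-β2PIPP was at 1.27, and ADAM9 with NCD38 was at 0.95, just under the 2-fold limit. ADAM10 with NCD38 went from 0.71 to 0.55, and with NCD38-β2P4 the values on day 30 went from 0.27 to 0.05 for ADAM9, from 0.47 to 0.25 for ADAM10 and from 0.40 to 0.24 for MMP1. By the ratio of FPKM + 1, no member was 2-fold from DMSO with NCD38-β2P4 on either day. By that ratio 0.506% and 0.497% of all genes were at least 2-fold higher and lower on day 30, and 1.1% and 0.81% on day 4. As plain FPKM, MMP3 was 5.25-fold higher with NCD38-β2P4 on day 4, on few fragments.

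**Figure D3:**
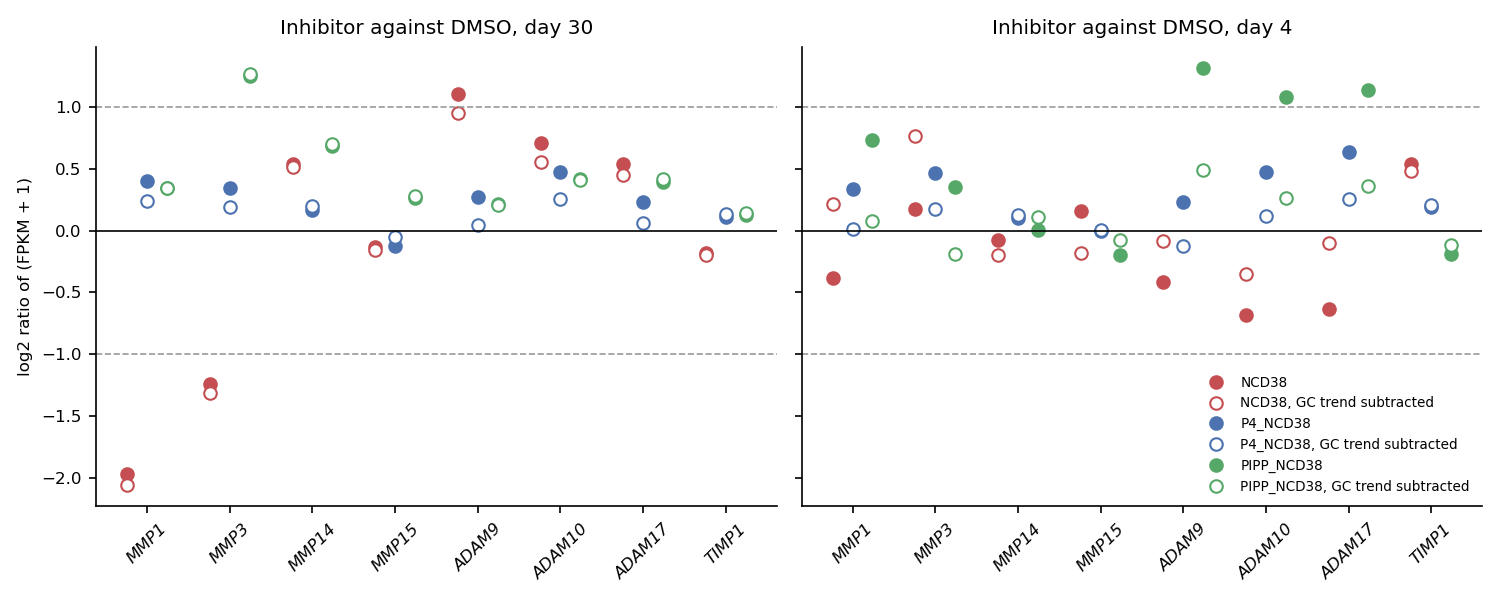
Log2 ratio of FPKM + 1 to the DMSO library of the same day for 8 members, on day 30 and day 4, with filled points for the deposited values and open points after the median of genes of similar transcript GC content was subtracted. Dashed lines mark 2-fold, MMP1 and MMP3 with NCD38 on day 30 stay below the lower line in both forms, and the 3 ADAM members with NCD38-β2PIPP on day 4 drop from above the upper line to between 0.26 and 0.49.

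TIMP1, the inhibitor, stood at 2158 FPKM with DMSO, 1900 under NCD38, 2333 under NCD38-β2P4 and 2358 under NCD38-β2PIPP on day 30. On day 4 it was at 2159, 3141, 2464 and 1888 FPKM. The DMSO libraries of both days were nearly equal, and the largest departure from DMSO was the 1.46-fold higher level with NCD38 on day 4. Its size depended on the processing: the log2 ratio was 0.54 as deposited, 0.49 with the GC trend subtracted and 0.99 after rescaling by the median ratio in this library. In that library the summed FPKM of the 3 TIMP members was 144 times that of the 4 MMP members, against 94.4 times with DMSO. On day 30 the quotient was 148 with NCD38 and 68.8 with DMSO, where the MMP sum was 12.9 and 31.4 FPKM.

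A member was called against DMSO of the same day where the ratio of FPKM + 1 reached 2-fold. The members called were MMP1 and MMP3 (lower) and ADAM9 (higher) with NCD38 on day 30, MMP3 (higher) with NCD38-β2PIPP on day 30, and ADAM9, ADAM10 and ADAM17 (higher) with NCD38-β2PIPP on day 4. Without the added 1, ADAM10 was also 2.81-fold lower with NCD38 on day 4, and MMP1 2.06-fold higher with NCD38-β2PIPP. MMP3, on few fragments, was then 2.42-fold, 5.25-fold and 4.13-fold higher on day 4 with NCD38, NCD38-β2P4 and NCD38-β2PIPP. The share of all genes past 2-fold as plain FPKM was not counted. No member was called lower with NCD38-β2PIPP, where 0.359% of all genes were on day 30 and 0.838% on day 4, and none was called with NCD38 on day 4, where 0.874% of all genes were called higher and 4.54% lower. MMP3 and ADAM9 entered the list by such ratios, so nothing is read from their counts. Of the 5 other members that passed the filter, 1 (MMP1) was called lower with NCD38 on day 30 beside 0.653% of all genes, and 2 (ADAM10 and ADAM17) higher with NCD38-β2PIPP on day 4 beside 10.3%, each from 2 libraries. In the limma fit with day as a block, which holds 2 libraries of each treatment and 3 residual degrees of freedom, none of these 5 members (MMP1, MMP15, ADAM10, ADAM17 and TIMP1) passed the adjusted threshold in any of 4 contrasts with DMSO. Over all genes the fit called 0.0368% with NCD38, 0.0184% with NCD38-β2P4, 0.0184% with NCD38-β2PIPP and 0.0276% for the mean of the 3 inhibitors. At an unadjusted p under 0.05, 1 of the 5 members was found with NCD38, namely MMP1, beside 1.33% of all genes, and 0 in the other 3 contrasts. MMP1 was not found at that level with the GC trend subtracted, after rescaling by the median ratio or without the filter.

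The 3 compounds were compared at the same labelled dose and times in 3 pairs. MMP1 was 5.99-fold higher with NCD38-β2P4 and 5.76-fold higher with NCD38-β2PIPP than with NCD38 on day 30, and 2.27-fold and 3.31-fold higher on day 4. By the ratio of FPKM + 1, 92 and 116 of 10865 genes were at least 2-fold higher in these pairs on day 30, and 1857 and 3335 on day 4. In the fit with day as a block the difference of MMP1 was 1.54 ± 0.44 (SE, 2 libraries each, 95% interval 0.44 to 2.65, limma adjusted p = 0.71) for NCD38-β2P4 and 1.71 ± 0.44 (95% interval 0.61 to 2.82, limma adjusted p = 0.53) for NCD38-β2PIPP against NCD38. After the GC subtraction the day 4 part of these differences was -0.20 and -0.16, and the day 30 part was 2.29 and 2.39. The 2 conjugates, which differ by 1 imidazole in place of a pyrrole, differed in MMP1 by 0.17 on the log2 scale, with a 95% interval of -0.93 to 1.28, a range that includes more than 1.5-fold in either direction. ADAM9, ADAM10 and ADAM17 were 5.78-fold, 8.18-fold and 4.72-fold higher with NCD38-β2PIPP than with NCD38 on day 4, so the rise on that day was not particular to MMP1. For MMP15, ADAM10, ADAM17 and TIMP1 the adjusted p lay between 0.53 and 1.0 in every pair. Of all genes, 0.0092% were called between NCD38-β2P4 and NCD38, 0.0184% between NCD38-β2PIPP and NCD38, and 0.0276% between the conjugates. MMP3 on day 30 was 10.9-fold higher with NCD38-β2PIPP than with NCD38 and 2.06-fold higher than with NCD38-β2P4, a difference that its choice as a member fixed in part.

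Day 30 and day 4 were compared over the 4 treatments, which pair the libraries. Every library of a day was collected after the same length of culture, so day, time in culture and batch cannot be told apart. Of all genes, 30.2% were called higher and 31.7% lower on day 30 by limma, so a call was common among all genes. MMP1 rose by 2.69 ± 0.31 on the log2 scale (SE, 4 pairs, limma adjusted p = 0.00129) and was higher on day 30 in 4 of 4 treatments. ADAM10 rose by 1.07 ± 0.35 (limma adjusted p = 0.0409), also in 4 of 4, and MMP15 fell by 0.60 ± 0.18 (limma adjusted p = 0.0338) in 4 of 4. ADAM17 (-0.03 ± 0.34, limma adjusted p = 0.944) and TIMP1 (-0.12 ± 0.19, limma adjusted p = 0.604) did not pass, with 95% intervals of -0.87 to 0.81 and -0.60 to 0.35. As a description, the difference was 1.86 for MMP3, 1.54 for ADAM9 and -1.76 for MMP14, and the mean FPKM of MMP1 and MMP3 on day 30 was 10.4 and 14.9 times that on day 4.

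The difference between the days also ran with transcript GC content, with a Spearman correlation of -0.7 over genes and a median log2 difference of 1.35 in the 20% of genes lowest in GC against -0.74 in the 20% highest. With each library's GC trend subtracted, MMP1 was still higher on day 30, by 2.02 ± 0.40 (limma adjusted p = 0.00356). ADAM10 was then at -0.36 (limma adjusted p = 0.0871) and MMP15 at 0.077 (limma adjusted p = 0.611), both with the sign turned. ADAM17 fell by 0.99 (limma adjusted p = 0.000921) and TIMP1 rose by 0.60 (limma adjusted p = 0.0269) in that form. Among the 3 members given without a test, MMP3 was at 1.45, MMP14 at -1.05 and ADAM9 at 0.11. The calls of ADAM10 and MMP15 were also lost without the DMSO pair (limma adjusted p = 0.114 and 0.128) and without the NCD38-β2P4 pair (0.108 and 0.145), and that of MMP15 without the NCD38 pair (0.0657).

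**Figure D4:**
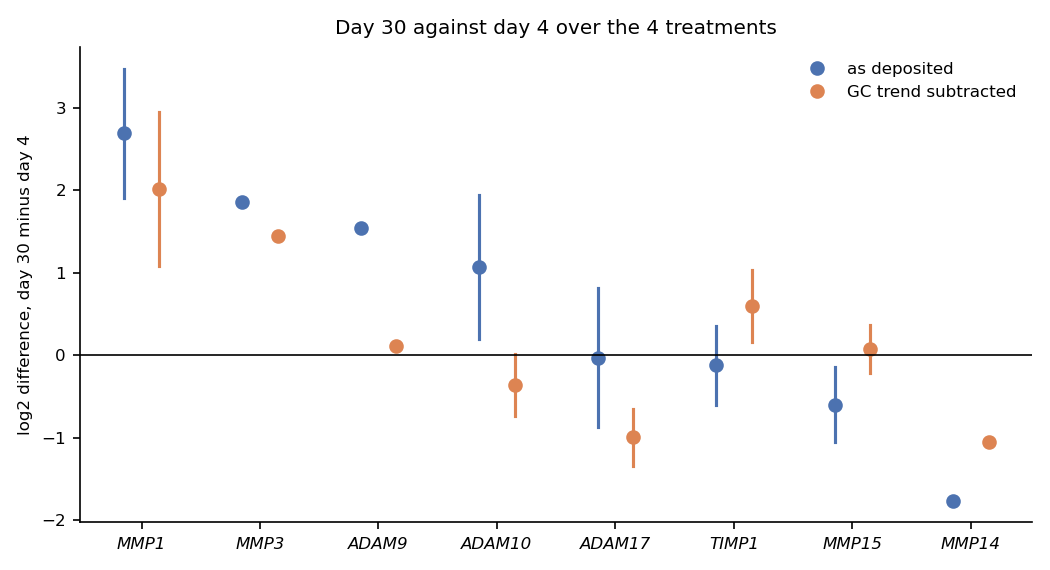
Log2 difference between day 30 and day 4 over 4 treatments for 8 members, for the deposited values and with each library's GC trend subtracted. Lines are 95% intervals of the limma fit and are left out for MMP3, ADAM9 and MMP14, which are given as a description. MMP1 stays at or above 2.02 in both forms, and ADAM10, MMP15 and TIMP1 change sign.

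Genes that act on the members also differed between the days. Of 10 activators of the proenzymes, 7 passed the filter and 6 were lower on day 30, with none higher, beside 31.7% of all genes lower and 30.2% higher. The median difference was -1.05 against -0.02 over all genes. FURIN, the proprotein convertase that cuts MMP14 and the ADAM proenzymes, was between 11.1 and 21.8 FPKM on day 30 and between 57.1 and 61.8 on day 4 (-1.97 ± 0.18, limma adjusted p = 0.000747). PLAUR, the urokinase receptor, was 66.2 to 101 FPKM on day 30 and 152 to 175 on day 4. With the GC trend subtracted, 4 of the 7 were lower and 1 was higher, beside 29.2% of all genes lower and 29.8% higher. No activator was 2-fold from DMSO by the ratio of FPKM + 1 in any of the 6 comparisons. Of all genes, between 0.359% and 10.3% were 2-fold higher or lower in a comparison, so a list this short would often hold none.

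Of 8 partners of ADAM10 and ADAM17 maturation, tetraspanins and the iRhom genes RHBDF1 and RHBDF2, 7 passed the filter and 3 were lower on day 30, with none higher, a share near the 31.7% of all genes. TSPAN17, the most abundant of them, was 14.5 to 16.0 FPKM on day 30 and 37.6 to 62.9 on day 4, while RHBDF1 was 9.37 to 15.1 and 14.8 to 17.6. None was 2-fold from DMSO of its day by the ratio of FPKM + 1, beside 0.359% to 10.3% of all genes higher or lower in a comparison. With the GC trend subtracted, 3 were lower and 1 was higher, against 29.2% and 29.8% of all genes.

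Of 18 substrates shed by these proteases, 8 passed the filter. On day 30, 5 were lower and 1 was higher, beside 31.7% and 30.2% of all genes. With the GC trend subtracted, 3 were lower and 1 was higher, beside 29.2% and 29.8%, so the lower share was near that of all genes. APP, the amyloid precursor protein, followed the order of ADAM17 on day 4, at 83.2 FPKM with DMSO, 37.7 under NCD38, 116 under NCD38-β2P4 and 138 under NCD38-β2PIPP, and was at 61.5, 91.3, 72.6 and 78.4 on day 30. MET, the receptor of hepatocyte growth factor, was 2.77, 1.76, 6.45 and 12.4 FPKM on day 4 and 11.9, 16.0, 14.8 and 15.2 on day 30. APP with NCD38 (lower) and MET with NCD38-β2PIPP (higher), both on day 4, were the only substrates 2-fold from DMSO by the ratio of FPKM + 1. Their log2 ratios were -1.12 and 1.83, in comparisons where 4.54% of all genes were lower and 10.3% higher. Relative to genes of similar GC content these ratios were -0.64 and 1.18. Among ligands of the EGF receptor, HBEGF was at 2.11 to 3.47 FPKM, and AREG, EREG, TGFA, BTC and EGF had a mean under 1 FPKM.

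The 11 AP-1 and ETS genes code for factors that act on promoters of secreted MMPs. Any part of these factors in the level of MMP1 was not tested. All 11 passed the filter. None was 2-fold from DMSO in any comparison by the ratio of FPKM + 1, beside 0.359% to 10.3% of all genes higher or lower. FOSL1, the most abundant, was at 473, 529, 412 and 332 FPKM on day 30 and at 480, 588, 536 and 454 on day 4, with NCD38 the highest library on both days. JUN was 72.2, 103, 71.0 and 78.5 on day 30 and 154, 109, 186 and 199 on day 4. The median log2 ratio of the list with NCD38 on day 30 was 0.31, against 0.06 over all genes. By day, 1 was higher and 6 were lower on day 30, beside 30.2% and 31.7% of all genes. With the GC trend subtracted, 3 were higher and 2 lower, no larger a share than the 29.8% and 29.2% of all genes.

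Among the other proteases of the families, MMP24, a membrane-type enzyme, was 7.19 to 9.48 FPKM on day 30 and 6.01 to 9.59 on day 4, and MMP11 was 2.46 to 3.66 and 4.16 to 5.26. ADAM15 was the most abundant protease of either family, at 37.6 to 44.97 FPKM on day 30 and 97.0 to 163 on day 4 (-1.51 ± 0.16, limma adjusted p = 0.000982). Its largest departure from DMSO was a log2 ratio of 0.52 with NCD38 on day 4.

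The genes whose pattern over the 8 libraries was most like that of a chosen member were found by the Pearson correlation of log2(FPKM + 1). The libraries share day and GC trend. What such genes have in common with the member in a given library follows from this choice and is no separate result. For MMP14 they were FAM57A (0.997), PIGO (0.996) and NOMO3 (0.996), each lowest in the DMSO library of day 30 and higher on day 4. For ADAM9 they were CEP55 (0.993), GBP3 (0.992) and ZDHHC20 (0.99). For MMP3 they were TMCO6 (0.98), NRBP2 (0.979) and OSGEP (0.973), all 3 lower with NCD38 than in the other day 30 libraries, for example NRBP2 at 8.57 FPKM with DMSO, 4.18 under NCD38, 8.60 under NCD38-β2P4 and 9.93 under NCD38-β2PIPP.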

How the data were processed

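Poly(A) RNA was sequenced from RKO cells under 4 treatments on 2 days, 1 library per condition. The authors deposited gene-level FPKM estimated with Cufflinks. The paper's methods name TopHat as the aligner, the submitters' processing notes name HISAT2 2.2.1.0 and hg19, and the annotation is not given in the sources used here. Groups were taken from the sample titles. The members and the gene lists were chosen with earlier results of these data known.

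Of 25594 entries, 90 that share a name were left out. FPKM + 1 was log2-transformed, and 10865 genes with a mean FPKM of at least 1 were tested. With 1 library per condition, an inhibitor was set against DMSO of the same day as a ratio with no test. A gene was called at 2-fold by the ratio of FPKM + 1, while fold values given for single genes are ratios of plain FPKM. Across both days, limma 3.58.1 in R 4.3.3 (terms day and treatment, variance trend, two-sided, Benjamini-Hochberg over all genes, threshold 0.05) gave differences with 3 residual degrees of freedom. Since libraries of different days or treatments stand in for replicates, these p-values measure the spread between such libraries. The fit was also run on simulated data, and the outcome is not given here. Transcript length and GC content came from GENCODE release 44 on GRCh37 for 9848 of the genes (90.6%), and the GC trend was removed as the median of 20 bins. Fragments were estimated from the value of single fragments in transcripts over 1500 bases and cover counting error only.

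Named genes were the members, KDM1A, from each list the most abundant genes and those 2-fold from DMSO, and the 3 genes most like MMP14, MMP3 and ADAM9. 1 gene that this rule names is not reported here. Alternatives were another pseudocount, filter, scaling, model or DMSO library, subtraction of the GC trend, and leaving out each treatment.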

Additional observations from a re-analysis of the deposited data

Results flagged for a closer look

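Members were singled out where an inhibitor lay above DMSO on one day and below it on the other, with both ratios larger, as ratios of FPKM with no pseudocount, than the counting error estimated from the fragments. With NCD38 this held for ADAM9, ADAM10 and ADAM17, whose log2 ratios on day 30 exceeded those on day 4 by 1.52, 1.39 and 1.17 on the log2(FPKM + 1) scale. ADAM9 entered the list through its day 30 ratio with NCD38, so its difference was fixed in part by that choice. TIMP1 went the other way with NCD38, by -0.725, and the day 30 ratio exceeded the day 4 ratio by 0.321 with NCD38-β2PIPP. Each rests on 1 library per condition and the difference was not tested. In the NCD38 library of day 4 the log2 ratio of all genes ran with transcript GC content at a Spearman correlation of 0.61, and with that trend subtracted the ADAM members were at -0.09, -0.35 and -0.10 on day 4.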

How the results depend on the processing

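Counts of genes at least 2-fold from DMSO (main: NCD38, NCD38-β2P4 and NCD38-β2PIPP 180, 109 and 127 on day 30, 588, 208 and 1213 on day 4) moved by over 1.5 times in these cases. A pseudocount of 0.1 gave 327 and 170 (NCD38 and NCD38-β2P4, day 30) and 1669, 623 and 2416 (day 4), and 0.01 gave 368, 198 and 213 and 2019, 812 and 2569. Rescaling by the median ratio gave 361 (NCD38) and 603 (NCD38-β2PIPP) on day 4. It turned the split with NCD38 on day 4 from 95 higher and 493 lower to 258 and 103, and with NCD38-β2PIPP from 1122 and 91 to 465 and 138. DMSO taken from the other day gave 4493, 4721 and 4623 on day 30 and 5734, 3939 and 3276 on day 4. Subtracting the GC trend gave 61, 10 and 12 and 31, 29 and 99; with NCD38 the split became 28 and 33 on day 30 and 14 and 17 on day 4, with NCD38-β2P4 13 and 16 on day 4, and with NCD38-β2PIPP 6 and 6 and 54 and 45.

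Members at 2-fold (main: 3, 0 and 1 on day 30, 0, 0 and 3 on day 4) became 1, 1 and 5 on day 4 with a pseudocount of 0.1, 2, 1 and 5 with 0.01, 1 with NCD38-β2PIPP after rescaling and 0 after GC subtraction. With that DMSO they became 5 with each conjugate on day 30 and, on day 4, 5 (NCD38) and 4 (NCD38-β2P4), and the log2 ratios of MMP3 and MMP1 with NCD38 on day 30 turned to 0.78 and 1.20 and that of ADAM9 with NCD38-β2PIPP on day 4 to -0.11.

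Genes higher on day 30 (3277) numbered 1746 at a mean FPKM of at least 5 (2918 lower) and 2189 to 3581 with a treatment left out, and genes lower (3445) 2378 to 3963. The sign of ADAM10 (-0.36) and MMP15 (0.077) turned with the GC trend subtracted, an alternative added after seeing the data. ADAM10 also missed the threshold with a pseudocount of 0.1 or 0.01 (limma adjusted p = 0.0523 and 0.0549) and both without the filter (0.0765 and 0.0628). MMP1 passed under every alternative. No member was called between treatments under the 8 alternatives run for those contrasts, 3 of which were added after seeing the data. The causes were not tested.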
